A study of Mus musculus with 16 samples.

Results

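Brain endothelial and barrier genes were followed through 16 cortex arrays, and they are Cldn5, Ocln, Pecam1, Slc2a1, Abcb1a, Slco1a4, Mfsd2a, Flt1, Kdr and Tek. They were listed by name, and their probes were found through the RefSeq accession that the array gives for each probe, so they make up 10 of the 17436 genes tested. Each gene had 1 named probe, which was well above background on all 16 arrays and saturated on none. The cortex came from male wild-type mice and from mice labelled Neil1 knockout (NEIL1 is a base excision repair enzyme), both on a C57BL/6 background, at an age of 28 to 42 weeks. Mice of each genotype were irradiated over the whole body with gamma rays (6 Gy, at 0.74 Gy/min) or sham-treated, and 20 h later the cortex of 4 mice from each of the 4 groups was taken. Every group, sham included, falls under a protocol with injections of BrdU, a thymidine analogue, at a dose of 100 mg/kg, 1 before irradiation and the other 2 h later. The labels name no promoter or cell type for the deletion, and the cortex was not dissociated, so every value is an average over all cells of the tissue.

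The endothelial cells of brain capillaries form the blood-brain barrier. Tight junctions seal them to each other, carriers bring glucose and lipids in, efflux pumps return drugs to the blood, and vesicle traffic across the cell is kept low. Receptors for vascular endothelial growth factor (VEGF) and for the angiopoietins govern the growth and the quiescence of these vessels. All 10 genes are transcribed in brain endothelium, although SLC2A1 is also made by astrocytes and PECAM1 by platelets and leukocytes.

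A level below is the log2 of a probe's processed signal minus the 75th percentile of its array, so 0 means a probe at that percentile, and levels of different probes were not compared. The 75th percentile ran from 1075 to 2725 intensity units over the 16 arrays, and the share of spots well above background from 62.4% to 72.4%, with the lowest shares in irradiated labelled knockout replicates 3 and 4. The probe for Neil1 was brighter in the arrays labelled knockout by 1.27 (log2) in sham and by 1.39 after irradiation. The files do not tell whether that probe lies in the deleted part, so it checks nothing and directions between genotypes rest on the labels. All wild-type arrays lay on 1 slide and all labelled knockout arrays on another, so genotype and slide cannot be told apart. Within each slide the sham arrays lay on 1 part and the irradiated arrays on another. Irradiation and the part of the slide therefore cannot be told apart either, which holds for every irradiation difference below.

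Claudin-5, the main sealing protein of brain endothelial tight junctions and the product of Cldn5, had the largest irradiation difference among the 10 genes in both genotypes, a lower level, and it did not pass the test across all genes. Its levels were 1.85, 2.11, 2.16 and 2.10 in wild-type sham, beside 1.75, 1.83, 1.55 and 1.41 in irradiated wild type. In the labelled knockout they were 2.33, 1.87, 1.88 and 2.00 in sham and 1.99, 1.45, 1.24 and 1.78 after irradiation. All 4 irradiated wild-type mice lay below all 4 wild-type sham mice, while in the labelled knockout irradiated replicate 1 lay among the sham mice. The difference was -0.42 ± 0.16 (SE; log2) in wild type and -0.41 ± 0.16 in labelled knockout. Averaged over genotypes it was -0.41 ± 0.11, with a 95% interval from -0.66 to -0.17, which corresponds to a signal lower by 25.0% (limma, adjusted p = 0.343). An exact permutation test in wild type alone gave a two-sided p of 0.0286, the smallest that 4 against 4 mice allow, and 0.327 after adjustment over the 40 comparisons of 2 groups made for the 10 genes. The interaction was 0.01 ± 0.23, with a 95% interval from -0.48 to 0.51, so a genotype difference of up to that size in the response to irradiation would not have been detected. The 2 group means in each genotype were 2.06 ± 0.14 and 1.63 ± 0.19 (SD, n = 4) in wild type, and 2.02 ± 0.22 and 1.61 ± 0.33 in labelled knockout, so both sham means lay above both irradiated means, and the groups of equal treatment differed by less than their spread.

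Occludin, the tight junction protein encoded by Ocln, lay lower in the same direction with a wider spread. Its levels ran from -3.75 to -3.11 in wild-type sham, from -4.05 to -3.59 in irradiated wild type, from -3.79 to -3.60 in labelled knockout sham and from -4.69 to -3.67 in irradiated labelled knockout. The groups overlapped in every comparison, and irradiated labelled knockout replicate 3 was the lowest of the 16 arrays. Averaged over genotypes the difference after irradiation was -0.31 ± 0.14 (limma, adjusted p = 0.977).

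Pecam1, which encodes the adhesion molecule CD31 of endothelial cell contacts, had larger differences between the genotype labels than with irradiation, and none passed the test across all genes. It stood at -2.90, -3.05, -3.17 and -2.94 in sham mice of wild type and at -2.64, -2.98, -3.11 and -3.13 in irradiated wild type. In the labelled knockout the values were -2.43, -2.97, -2.82 and -2.48 in sham and -2.19, -2.67, -2.48 and -2.54 after irradiation. Labelled knockout levels were mostly higher, with irradiated wild-type replicate 1 and labelled knockout sham replicate 2 as the mice that made the groups overlap. The genotype difference was 0.34 ± 0.15 in sham (limma, adjusted p = 0.614) and 0.49 ± 0.15 after irradiation (1.41-fold, 95% interval of the log2 difference 0.17 to 0.81, adjusted p = 0.112). Without irradiated wild-type replicate 1 it was 0.60 and passed the threshold, as it did with normexp background correction or array weights, and genotype and slide cannot be told apart here. Irradiation gave differences of 0.05 ± 0.15 in wild type and 0.20 ± 0.15 in labelled knockout.

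**Figure D1:**
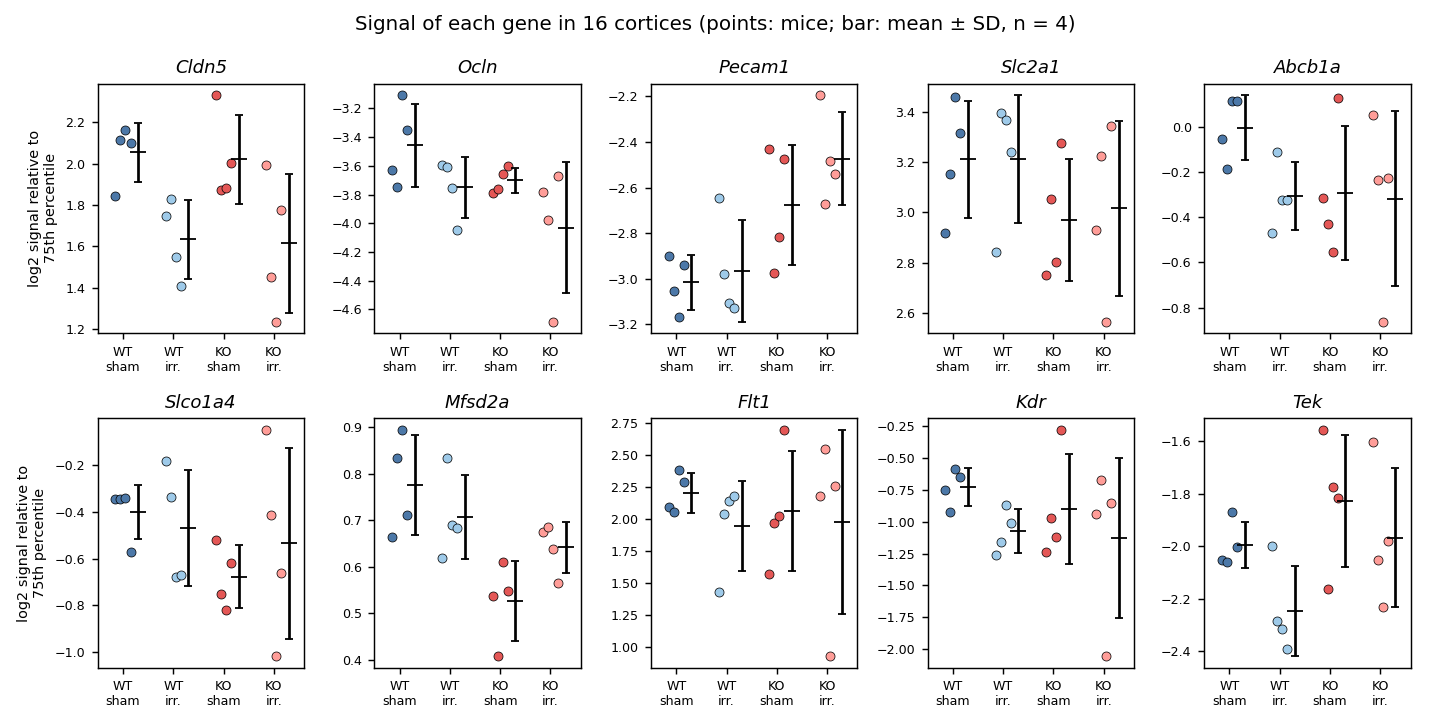
Level of each gene (log2 signal minus that of the 75th percentile) in each of the 16 mice, by group, with the mean ± SD (n = 4) as a bar beside the points, WT for wild type, KO for labelled knockout and irr. for irradiated. Each panel has its own axis. In Cldn5 the irradiated wild-type points lie between 1.41 and 1.83, below the sham points, and in Flt1 and Kdr 1 irradiated labelled knockout mouse, replicate 3, lies far below the rest at 0.92 and -2.06.

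Among the carriers, the glucose transporter gene Slc2a1 (GLUT1) had no irradiation difference larger than its error. Its levels ran from 2.92 to 3.46 in wild-type sham, from 2.84 to 3.40 in irradiated wild type, from 2.75 to 3.27 in labelled knockout sham and from 2.56 to 3.35 in irradiated labelled knockout. All 4 groups overlapped. The irradiation difference averaged over genotypes was 0.02 ± 0.13, with a 95% interval from -0.26 to 0.31, and the genotype difference was -0.24 ± 0.19 in sham and -0.20 ± 0.19 after irradiation (limma, adjusted p = 0.838 and 0.659).

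Mfsd2a encodes a transporter of lysophosphatidylcholine that carries docosahexaenoic acid into the brain and keeps transcytosis low. Over the 4 groups together it had the smallest spread between mice of the 10 genes. Its levels were 0.66, 0.83, 0.89 and 0.71 in wild-type sham, beside 0.62, 0.83, 0.69 and 0.68 in irradiated wild type. In the labelled knockout they were 0.54, 0.41, 0.61 and 0.55 in sham and 0.67, 0.69, 0.64 and 0.57 after irradiation. The 4 labelled knockout sham mice lay below all 4 wild-type sham mice, and the irradiated mice of the genotypes overlapped. The genotype difference was -0.25 ± 0.08 in sham (95% interval -0.43 to -0.07, limma adjusted p = 0.483) and -0.06 ± 0.08 after irradiation. In sham the exact permutation p was 0.0286, or 0.327 after adjustment over the 40 comparisons. Whether the genotype difference depends on irradiation was tested by the interaction, which was 0.19 ± 0.12 (adjusted p = 1.0).

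The drug efflux pump gene Abcb1a (P-glycoprotein) and the organic anion transporter gene Slco1a4 showed no difference that passed. Abcb1a ran from -0.18 to 0.12 in wild-type sham and from -0.47 to -0.11 in irradiated wild type, groups that overlapped in 1 mouse of each. In the labelled knockout it ran from -0.55 to 0.13 in sham and from -0.86 to 0.05 after irradiation. The irradiation difference was -0.30 ± 0.18 in wild type and -0.03 ± 0.18 in labelled knockout (limma, adjusted p = 1.0 and 0.999), and the interaction was 0.28 ± 0.26. Slco1a4 ran from -0.57 to -0.34 in wild-type sham, from -0.68 to -0.19 in irradiated wild type, from -0.82 to -0.52 in labelled knockout sham and from -1.02 to -0.05 in irradiated labelled knockout. The last group spanned all the others. The genotype difference in Slco1a4 was -0.28 ± 0.18 in sham (adjusted p = 0.776) and -0.07 ± 0.18 after irradiation.

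The VEGF receptor genes had the widest spread between mice over the 4 groups together, but not in every group. In wild-type sham their SD was 0.16 (Flt1) and 0.15 (Kdr), against 0.29 for Ocln. In irradiated labelled knockout it was 0.72 and 0.63. Flt1 encodes VEGFR1, which binds VEGF tightly and in its soluble form acts as a decoy, and Kdr encodes VEGFR2, the main signalling receptor for VEGF. Flt1 gave 2.09, 2.06, 2.39 and 2.29 in wild-type sham, beside 1.43, 2.04, 2.14 and 2.18 in irradiated wild type. In the labelled knockout Flt1 gave 1.57, 1.97, 2.02 and 2.70 in sham and 2.18, 2.55, 0.92 and 2.26 after irradiation. Labelled knockout sham replicate 4 was the highest array and irradiated labelled knockout replicate 3 the lowest. Kdr gave -0.75, -0.93, -0.59 and -0.65 in wild-type sham, beside -1.26, -1.16, -0.87 and -1.01 in irradiated wild type. Its labelled knockout levels were -1.24, -0.97, -1.12 and -0.28 in sham and -0.94, -0.67, -2.06 and -0.86 after irradiation. The same 2 mice were the highest and the lowest for Kdr as for Flt1. In wild type the difference after irradiation was -0.26 ± 0.31 for Flt1 and -0.35 ± 0.26 for Kdr, and in labelled knockout -0.09 ± 0.31 and -0.23 ± 0.26 (limma, adjusted p from 0.999 to 1.0). Leaving out replicates 3 and 4 of irradiated labelled knockout, whose arrays were the 2 dimmest, gave labelled knockout differences of 0.30 for Flt1 and 0.10 for Kdr.

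Tek encodes TIE2, the endothelial receptor for the angiopoietins. Its levels were -2.05, -2.06, -1.87 and -2.0 in wild-type sham, beside -2.0, -2.28, -2.32 and -2.39 in irradiated wild type. In the labelled knockout Tek was at -1.56, -2.16, -1.77 and -1.82 in sham and -1.60, -2.05, -2.23 and -1.98 after irradiation. Among the wild-type mice, 3 of the 4 irradiated ones lay below every sham mouse, and the labelled knockout groups overlapped throughout. The irradiation difference averaged over genotypes was -0.20 ± 0.10 (limma, adjusted p = 1.0), and the genotype difference was 0.17 ± 0.15 in sham and 0.28 ± 0.15 after irradiation (adjusted p = 0.866 and 0.365).

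**Figure D2:**
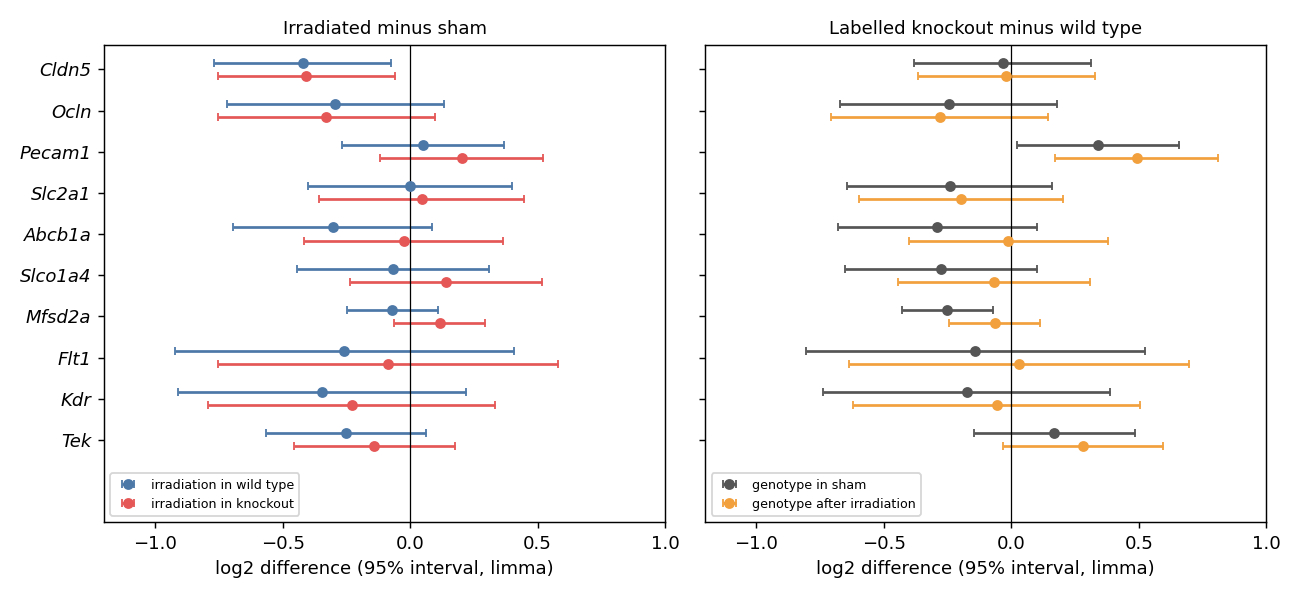
Log2 differences of the 10 genes with 95% intervals from limma, irradiated minus sham within each genotype on the left and labelled knockout minus wild type within each treatment on the right. The Cldn5 intervals after irradiation reach from -0.77 to -0.07 in wild type and from -0.75 to -0.06 in labelled knockout, before any adjustment for the number of genes, and the Flt1 intervals are the widest.

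Counted together, 0 of the 10 genes passed an adjusted p under 0.05 in any of the 6 contrasts (limma, Benjamini-Hochberg over 17436 genes). Of all genes tested, 0.0746% passed for irradiation in wild type, 0.120% in labelled knockout and 0.304% averaged over genotypes. The shares were 0.0516% for genotype in sham, 1.18% for genotype after irradiation and 0% for the interaction, so a set of 10 genes at the background would hold fewer than 1 call. At an unadjusted p under 0.05, Cldn5 passed in wild type (1 of 10 genes, against 1.97% of all genes) and in labelled knockout (1 of 10, against 4.63%), and Cldn5 and Ocln in the average (2 of 10, against 4.995%). Pecam1 and Mfsd2a passed for genotype in sham (2 of 10, against 7.69%), Pecam1 for genotype after irradiation (1 of 10, against 16.6%), and 0 of 10 genes for the interaction (against 1.27%). Groups did not overlap for Cldn5 under irradiation in wild type (1 of 10 genes, against 1.97% of all genes) and for Mfsd2a under genotype in sham (1 of 10, against 4.82%). No gene of the 10 had separate groups for irradiation in labelled knockout, where 2.19% of all genes did, or for genotype after irradiation, where 8.73% did.

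By direction, 9 of the 10 genes had a lower mean after irradiation in wild type, as did 45.5% of all genes. Slc2a1 counts among the 9 with a difference of 0.00 to 2 decimals. The median log2 difference of the 10 genes was -0.25 against 0.01 over all genes. In labelled knockout 6 of 10 were lower, against 50.2% of all genes, with a median of -0.06 against -0.001. The interaction was above 0 for 9 of 10 genes, while 52.6% of all genes were below 0. Its median was 0.13 against -0.01, and 0 of the 10 genes passed its test. Between genotypes the median was -0.21 in sham (8 of 10 lower, all genes -0.02) and -0.04 after irradiation (7 of 10 lower, all genes -0.03). Of all genes 54.7% were lower in each of these 2 contrasts. Some of the 10 genes moved together between mice, so these counts are not made of independent observations. In bulk cortex, fewer endothelial cells and less RNA per cell cannot be told apart. The irradiated wild-type arrays also differed from wild-type sham in other ways: 66.5% to 68.3% of their spots were well above background against 69.3% to 72.4%, and all 12 oligodendrocyte markers had a lower mean, with a median of -0.38. The mean level of those markers ran from 1.42 to 2.39 over the wild-type sham arrays and from 1.13 to 2.14 over the irradiated ones. In labelled knockout 10 of the 12 markers had a higher mean after irradiation and 2 a lower one (median 0.16). All 12 had an interaction above 0 (median 0.44), the direction of 9 of the 10 genes, with 0 calls. The part of these measures in the lower levels of the 10 genes, or in their interaction, was not tested.

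The 34 other endothelial identity genes (transcription factors such as Erg and Sox17, adhesion and surface proteins such as Cdh5, Emcn and Cd34) had medians near 0 in both genotypes. Their median was -0.03 in wild type, with 18 of 34 lower, and 0.05 in labelled knockout, with 15 of 34 lower, and 0 of the 34 passed the test in any contrast. The smallest p in the averaged irradiation contrast belonged to genes with higher levels: Mmrn2, an endothelial matrix glycoprotein, at 0.73 ± 0.18, and Ly6a, a surface protein also known as Sca-1, at 0.55 ± 0.14 (limma, adjusted p = 0.21 each). Over the 34 genes the differences in that contrast ran from -0.36 to 0.73.

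Related barrier genes were read from further lists. Of 20 other junction genes 0 passed in any contrast, and in the average 12 were lower with a median of -0.03. Cdh5, the adherens junction cadherin of endothelium, was at -0.21 ± 0.10 there and Lsr, a protein of tricellular junctions, at -0.20 ± 0.10 (adjusted p = 1.0 each). Of 33 other barrier transporters 0 passed (4 for genotype after irradiation with normexp correction), with medians of -0.06 in wild type and -0.001 in labelled knockout. The smallest p among them in the average were those of Slco2b1, an organic anion carrier, at -0.29 ± 0.07 (adjusted p = 0.126), and Slc38a5, a glutamine carrier, at 0.40 ± 0.13 (adjusted p = 0.521). None of 24 VEGF and angiopoietin pathway genes passed, although for genotype after irradiation 4 did with normexp correction, 2 with no filter on dim probes and 1 under 8 other alternatives. The growth factor gene Vegfa was at -0.21 ± 0.09 in the average (adjusted p = 0.951), beside Pgf, a ligand of FLT1, at 0.28 ± 0.14 (adjusted p = 1.0). None of 23 genes of the Wnt pathway that induces the barrier passed either: the Wnt feedback inhibitor gene Nkd1 was at -0.23 ± 0.08 (adjusted p = 0.766) and Adgra2, a WNT7 co-receptor, at -0.22 ± 0.12 (adjusted p = 1.0).

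Among genes of caveolae, fenestrations and leukocyte entry, 1 passed. Cav1, the coat protein of caveolae, was higher in labelled knockout than in wild type after irradiation by 0.59 ± 0.12 (limma, adjusted p = 0.0337), with means of -5.39 ± 0.11 (SD, n = 4) in irradiated wild type and -4.80 ± 0.17 in irradiated labelled knockout. In sham the means were -4.98 ± 0.15 and -4.84 ± 0.19. The list had 0 calls without irradiated wild-type replicate 2, 3 or 4, without any 1 of the 4 irradiated labelled knockout replicates, without the 2 dimmest arrays, under quantile normalization, with only the 2 groups compared, with trended and robust variances, and with the deposited scores. In the averaged irradiation contrast Mmp2, a matrix metalloproteinase, was at 0.74 ± 0.17 (adjusted p = 0.136) and Icam1, the leukocyte adhesion receptor, at 0.71 ± 0.18 (adjusted p = 0.21, well above background on 13 of 16 arrays). The list had 1 call in this contrast under normexp correction and without irradiated wild-type or irradiated labelled knockout replicate 2. Over the 17 tested genes of that list the median was 0.05 in wild type and 0.02 in labelled knockout.

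Other cells of the vessel wall and the tissue were read the same way. None of 17 pericyte and smooth muscle markers passed: Pdgfrb, the pericyte growth factor receptor, was at -0.23 ± 0.09 in the averaged irradiation contrast (adjusted p = 0.856) and Acta2, smooth muscle actin, at 0.28 ± 0.11 (adjusted p = 0.876). None of 12 fibroblast and meninges markers passed, with the collagen genes Col3a1 at -0.48 ± 0.23 and Col1a1 at -0.28 ± 0.20 (adjusted p = 1.0 each). Of 14 astrocyte endfoot and vessel support markers 1 passed, the glutamate transporter gene Slc1a2, which was higher in labelled knockout after irradiation by 0.58 ± 0.13 (adjusted p = 0.0437). That list had 0 calls without any 1 of 12 single arrays (wild-type sham replicates 1 to 3, irradiated wild-type replicates 2 to 4, labelled knockout sham replicates 2 and 3 and all 4 irradiated labelled knockout replicates). It also had 0 calls without the 2 dimmest arrays, under quantile normalization, with only the 2 groups compared and with the deposited scores. In the irradiation average Gja1, the astrocyte gap junction protein connexin 43, was at -0.23 ± 0.10 (adjusted p = 0.915) and the laminin gene Lama2 at -0.18 ± 0.09 (adjusted p = 1.0).

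Of 12 microglia markers, P2ry12, the purinergic receptor of resting microglia, fell in the averaged irradiation contrast by 0.69 ± 0.07 (adjusted p = 0.000219), and that list had 1 call, or 2 with array weights or without labelled knockout sham replicate 4. Among 11 tested blood cell markers, the platelet glycoprotein gene Gp9 fell by 0.90 ± 0.13 and the B cell receptor gene Cd79b fell by 0.74 ± 0.11 (adjusted p = 0.00504 and 0.00409), and that list had 0 calls under normexp correction and 1 under quantile normalization or with the deposited scores. None of the choroid plexus (14), oligodendrocyte (12) or neuron (12) markers passed. The smallest p there in the irradiation average belonged to Cldn2 and Otx2 for choroid plexus (0.73 ± 0.37 and 0.84 ± 0.45), Ermn and Gjb1 for oligodendrocytes (-0.49 ± 0.38 and -0.30 ± 0.27) and Camk2a and Snap25 for neurons (0.28 ± 0.14 and -0.11 ± 0.10), each with an adjusted p of 1.0. In sham, all 14 choroid plexus markers had a lower mean in the arrays labelled knockout (median -0.43), the direction of 8 of the 10 barrier genes. The same direction was seen for all 12 fibroblast and meninges markers (median -0.28) and 11 of 12 oligodendrocyte markers (median -0.25), while 11 of 12 neuron markers had a higher mean (median 0.13). The part of these markers in the barrier gene differences was not tested.

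The 10 genes also varied between mice of the same group, and some of them moved together. Each array's deviation from its group mean was taken for every gene, so that differences between group means no longer enter. The spread within groups still enters, and it differed between groups, as given above for Flt1 and Kdr. Of the 45 pairs among the 10 genes, 40 had a positive correlation over the 16 arrays, with a median Pearson r of 0.37. The mean deviation of the 10 genes was lowest in irradiated labelled knockout replicate 3 at -0.48, and highest in irradiated labelled knockout replicate 1 at 0.25 and labelled knockout sham replicate 4 at 0.24. The other 13 arrays lay between -0.13 and 0.13. Replicate 3 was the lowest of all 16 arrays for 7 of the 10 genes, and it also had the lowest share of spots well above background, 62.4%. The count of positive pairs rested partly on this array. Without it some pairs turned negative, such as Cldn5 and Flt1 (from 0.16 to -0.25) and Slco1a4 and Flt1 (from 0.26 to -0.19). Others kept a high r, such as Flt1 and Kdr (0.91) and Cldn5 and Tek (0.76).

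**Figure D3:**
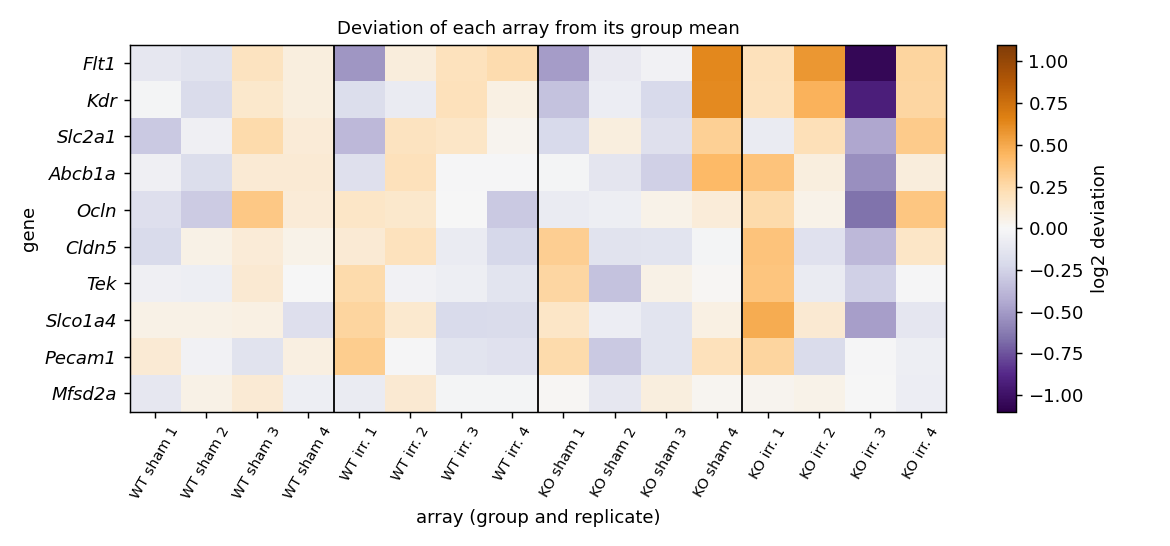
Deviation of each array from the mean of its group for each of the 10 genes (colour, log2; orange above and purple below the mean), with arrays by group and replicate along the horizontal axis. Flt1 and Kdr share their strongest colours, in labelled knockout sham replicate 4 and irradiated labelled knockout replicates 2 and 3, while Cldn5, Tek and Slco1a4 all lie above their group means in irradiated labelled knockout replicate 1 (0.38, 0.36 and 0.49) and below them in replicate 3 (-0.38, -0.27 and -0.48).

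Both VEGF receptor genes moved together most closely. For Flt1 and Kdr, Pearson's r was 0.95 and Spearman's rho 0.90 (permutation within groups, two-sided p = 5e-05 and 0.00023, adjusted over the 45 pairs 0.00225 and 0.0103). Without the 2 arrays farthest from the median of Flt1 r was 0.94, and within the wild-type slide it was 0.79 and within the labelled knockout slide 0.99. Slc2a1 followed both, with r of 0.85 and rho of 0.81 for Flt1 (permutation p = 0.00091 and 0.00082, adjusted 0.0187 and 0.0184) and r of 0.79 and rho of 0.78 for Kdr (permutation p = 0.00125 and 0.00148, adjusted 0.0187 and 0.0222). Without the 2 arrays farthest for Slc2a1 these were 0.74 and 0.70, in the wild-type slide 0.85 and 0.63, and in the labelled knockout slide 0.89 and 0.91.

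Cldn5 and Tek were the remaining pair that passed, with r of 0.80 and rho of 0.76 (permutation p = 0.00335 and 0.005, adjusted 0.0377 and 0.0562), so this pair passed by r and not by rho. Without the 2 farthest arrays r was 0.66, and within the slides it was 0.59 in wild type and 0.86 in labelled knockout. Abcb1a and Kdr had a higher r, 0.83, and a rho of 0.75, but did not pass (permutation within groups, adjusted p = 0.0834 and 0.0727). For Flt1 with Cldn5 and with Tek, r was 0.16 and 0.05 over all 16 arrays, values in which the slides differed in sign. Within the wild-type slide they were -0.26 and -0.63, and within the labelled knockout slide 0.28 and 0.22. The lowest r of the 45 was that of Pecam1 and Slc2a1, at -0.42. These p-values describe association between arrays, which share a slide and a scan, and many genes outside the list were as close. An absolute r over 0.8 was reached with Flt1 by 6.88% of all genes, with Slc2a1 by 7.95%, with Kdr by 4.16%, with Cldn5 by 2.14%, with Tek by 1.49% and with Mfsd2a by 0.012%.

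**Figure D4:**
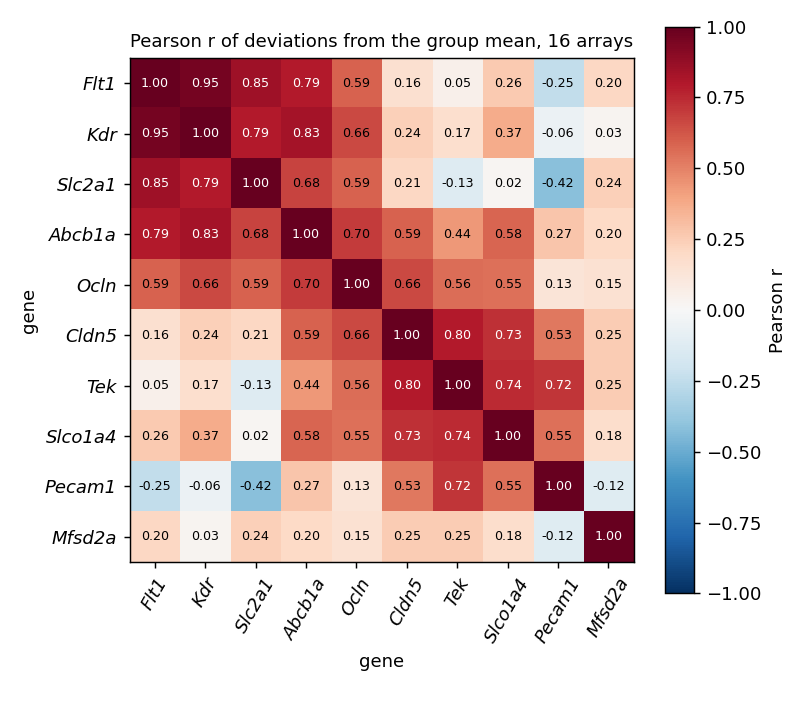
Pearson r between the deviations of each pair of the 10 genes over 16 arrays (colour and printed value, from -1 in blue to 1 in red). Flt1, Kdr, Slc2a1 and Abcb1a form a block of high values, with 0.95 for Flt1 and Kdr. Cldn5, Tek, Slco1a4 and Pecam1 form another, with 0.80 for Cldn5 and Tek. The blocks are not separate, since Cldn5 has 0.59 with Abcb1a and 0.53 with Pecam1.

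The promoters of Flt1, Kdr, Cldn5 and Tek are shown because Flt1 moved with Kdr, and Cldn5 with Tek, from mouse to mouse. RefSeq's table for the build GRCm38.p6 held an entry for 9 of the 10 genes. The 250 bases before the start site of the entry are printed 5′ to 3′ on the strand of the gene, with matches in capitals. The annotated 5′ ends of Flt1, Kdr and Tek are at 147726438, 75979072 and 94739086. The printed windows of Flt1 and Kdr therefore lay wholly inside the annotated gene, and that of Tek mostly. The motifs searched on both strands were GGGCGG (the GC box bound by SP1 and related factors), TATAAA (bound by the TATA-binding protein), AACAAT (bound by SOX factors) and CGGAAG (bound by ETS factors).
Flt1, chr5:147726012-147726261, minus strand: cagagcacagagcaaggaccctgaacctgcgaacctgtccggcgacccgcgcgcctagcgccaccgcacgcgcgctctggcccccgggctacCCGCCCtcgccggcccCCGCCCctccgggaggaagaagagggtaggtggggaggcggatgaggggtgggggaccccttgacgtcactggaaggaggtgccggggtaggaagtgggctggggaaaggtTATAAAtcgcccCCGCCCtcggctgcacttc
Kdr, chr5:75978456-75978705, minus strand: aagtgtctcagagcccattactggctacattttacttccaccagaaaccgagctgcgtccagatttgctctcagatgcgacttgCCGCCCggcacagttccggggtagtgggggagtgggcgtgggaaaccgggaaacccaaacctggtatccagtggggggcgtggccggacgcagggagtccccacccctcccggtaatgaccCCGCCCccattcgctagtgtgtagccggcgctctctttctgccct
Cldn5, chr16:18776597-18776846, plus strand: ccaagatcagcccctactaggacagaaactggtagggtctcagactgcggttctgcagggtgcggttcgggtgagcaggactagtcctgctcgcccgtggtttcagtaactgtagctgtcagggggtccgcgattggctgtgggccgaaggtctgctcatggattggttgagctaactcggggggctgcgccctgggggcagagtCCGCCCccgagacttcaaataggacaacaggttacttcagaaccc
Tek, chr4:94739039-94739288, plus strand: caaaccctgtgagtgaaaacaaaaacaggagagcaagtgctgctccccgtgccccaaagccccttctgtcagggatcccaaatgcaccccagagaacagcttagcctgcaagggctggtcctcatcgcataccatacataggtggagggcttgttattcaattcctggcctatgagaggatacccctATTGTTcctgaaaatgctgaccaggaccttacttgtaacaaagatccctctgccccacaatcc
Flt1 held GGGCGG at 3 places and TATAAA once, with its first base at -31 from the start site, and Kdr held GGGCGG at 2 places. Cldn5 held GGGCGG once, and Tek held AACAAT once. All of these except the TATAAA of Flt1 lay on the opposite strand, where GGGCGG reads CCGCCC and AACAAT reads ATTGTT. Over the 32851 promoters of the table, 32.7% held GGGCGG, 12.4% TATAAA, 9.42% AACAAT and 13.6% CGGAAG in a window of this length. The Slc2a1 window held GGGCGG at 2 places, and no window of the 9 genes held CGGAAG. These matches describe letters in a window and are not bound sites.

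The genes closest to each member were named by the highest r over the 16 arrays of deviations, with no test. Cldn5 was closest to Sox18, an endothelial transcription factor (r = 0.95), then to Scd1, a fatty acid desaturase (0.94), and Misp3 (0.93). Tek was closest to Gja4, connexin 37 of arterial endothelium (0.95), then to Sptb (0.91) and Pml (0.91). Slc2a1 was closest to Slc16a1, the monocarboxylate transporter MCT1 that carries lactate and ketones across the barrier (0.97), then to Daam1 (0.97) and Tnpo1 (0.96). Flt1 was closest to Fbxl12 (0.97), Chd9 (0.95) and Kdr (0.95), and Kdr to 1600010M07Rik (0.97), Flt1 (0.95) and Atad2b (0.94).

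For Ocln the closest genes were the monocarboxylate transporter family gene Slc16a4 (0.92), Pth2 (0.88) and 4930412C18Rik (0.88), and for Pecam1 they were Npepl1 (0.95), Vars (0.94) and Josd2 (0.93). Abcb1a was closest to Ccdc163 (0.96), Stap2 (0.94) and Sigirr (0.94), and Slco1a4 to Appl2 (0.93), Zfp335 (0.93) and Fcer2a (0.91). Mfsd2a, with the smallest spread, reached at most 0.81 with Nrf1, 0.78 with Kcnk6 and 0.77 with A330015K06Rik. The mean of the 10 genes was closest to Sigirr (0.98), the chemokine gene Cxcl12 (0.97), the pericyte gene Rgs5 (0.95), Adamts1 (0.95), Slc16a4 (0.94), Adam21 (0.94), the pericyte channel subunit gene Abcc9 (0.93), the endothelial gene Ushbp1 (0.93), Cd2ap (0.93) and Cntf (0.93). Some neighbours depended on the scaling. Under quantile normalization Adam21 had 0.64 (rank 1179) and Slc16a4 0.79 (rank 253) with that mean. There 1600010M07Rik had 0.81 with Kdr (rank 270) and Sigirr 0.78 with Abcb1a (rank 278). Sox18 for Cldn5, Gja4 for Tek and Slc16a1 for Slc2a1 kept rank 1.

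Read over arrays, the mean of the 10 genes ran with the mean of the 34 other endothelial genes, although the lists share no gene. The deviations correlated with r of 0.98 and rho of 0.97, as a description over 16 arrays that share depth and RNA. The value was 0.96 without irradiated labelled knockout replicate 3, 0.96 without the 2 farthest arrays, 0.90 within the wild-type slide and 0.99 within the labelled knockout slide. Of the 34 genes, 33 had a positive r with the mean of the 10, and their median was 0.68 against -0.02 over all genes. An r over 0.8 was reached by 7 of the 34, among them the endothelial phosphatase gene Ptprb (0.92), the cadherin gene Cdh5 (0.91) and the guidance receptor gene Robo4 (0.89), and by 1.23% of all genes. Palmd was the 1 gene with a negative value, -0.57.

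Other lists followed the 10 genes less closely. The caveola, fenestration and leukocyte entry genes had r of 0.82, the oligodendrocyte markers 0.62, the Wnt genes 0.62, the barrier transporters 0.61, the pericyte and smooth muscle markers 0.56, the astrocyte markers 0.48 and the blood cell markers 0.25. Several of these values rested on few arrays. Without irradiated labelled knockout replicate 3 the Wnt genes had 0.28 and the transporters 0.29, and without the 2 farthest arrays, replicates 3 and 1 of that group, the Wnt genes had 0.26, the transporters -0.03, the pericyte markers 0.22 and the blood cell markers 0.40. Microglia markers ran the other way at -0.59, as did the fibroblast markers at -0.41, the choroid plexus markers at -0.36, the VEGF pathway genes at -0.27 and the junction genes at -0.24, while neuron markers were at -0.05. Without replicate 3 these were -0.56 for microglia, -0.25 for fibroblast, -0.27 for choroid plexus, -0.45 for VEGF pathway, -0.38 for junction and -0.31 for neuron genes. The slides differed in sign for the transporters (-0.55 in wild type, 0.87 in labelled knockout), the pericyte markers (-0.15 and 0.67) and the blood cell markers (-0.46 and 0.46). The remaining lists kept 1 sign on both slides. The junction genes (-0.87 and -0.03) and VEGF pathway genes (-0.85 and -0.12) were far from 0 only in wild type. The share of spots well above background had r of 0.65 with the mean of the 10 genes and the 75th percentile of signal 0.16, or 0.37 and -0.26 without the 2 farthest arrays, and the part of these array measures in the common movement was not tested.

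**Figure D5:**
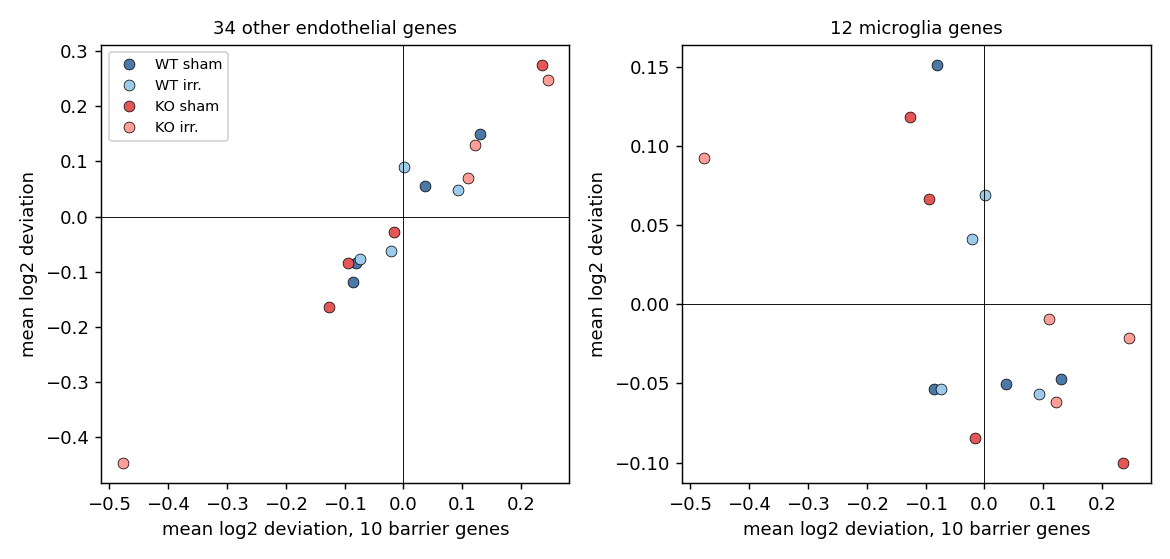
Mean log2 deviation from the group mean of the 10 barrier genes (horizontal axis) against that of 34 other endothelial genes (left) and of 12 microglia markers (right), 1 point per array, coloured by group. On the left the points follow a line from irradiated labelled knockout replicate 3 at -0.48 and -0.45 up to 0.25 on both axes, and on the right the microglia means lie between -0.10 and 0.15 and tend to be lower where the barrier genes are higher.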

How the data were processed

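Cortex RNA was measured on 1-colour Agilent arrays, 1 per mouse and 4 per group. Per the file headers, the authors extracted each array with Agilent Feature Extraction 12.0.3.1, and the deposited intensity used here is its processed signal, background-subtracted within the array. The deposited flags marked spots as well above background, saturated or outlying. A further deposited table by the authors gives a score per feature, which tracked each array's log signal (lowest r 0.9996), was read as z-scores and served as an alternative only. The sources used here do not describe how it was scaled.

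Levels are log2 processed signal minus the array's 75th percentile. Probes well above background on at least 4 of 16 arrays were kept (39589 of 56605), and genes needed values on at least 12 arrays. Accessions were named through a RefSeq gene table (GRCm38.p6), and the brightest probe stood for a gene. The 17436 genes were fitted with limma 3.58.1 (R 4.3.3), 1 mean per group, 12 residual degrees of freedom, with Benjamini-Hochberg adjustment per contrast, and called at an adjusted p under 0.05. The number of arrays limits the precision. The fit was tested on simulated data. Single comparisons used exact permutation tests, and correlations between members 100000 permutations within groups.

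Members and lists were chosen with earlier results of these data known. All 10 members are named. From each other list the text names called genes (up to 4 per contrast, by p) and otherwise the 2 smallest p of the averaged irradiation contrast, and it names the 3 genes most like each member and 10 most like their mean. Alternatives were normexp correction, quantile scaling, other filters, percentiles and probe rules, 2-group fits, trended variance, array weights, the replicate block, leaving out each array, and the deposited scores. Normexp took median spot signals, since the files used here hold no mean signal.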

Additional observations from a re-analysis of the deposited data

Results flagged for a closer look

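In 1 of the 40 groups of 4 arrays checked among the 10 genes, 1 array stood far from the other 3. Slco1a4 in wild-type sham replicate 4 was at -0.57, while the other 3 mice lay between -0.35 and -0.34, and the gap made up 0.967 of the group's range, above Dixon's 95% critical value for 4 samples. Chance flags about 1 in 20 groups. Without this mouse the Slco1a4 genotype difference in sham was -0.33 in place of -0.28 (log2).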

How the results depend on the processing

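Of 1660 values of the 10 genes and their counts under 28 alternatives, 1643 kept their side of the threshold or moved by less than the spread. None of the 10 genes was called in the main fit, so there was no called value that could turn. The number of genes called for genotype after irradiation went from 0 to 1, Pecam1, with normexp correction, array weights or the replicate block, and ranged from 0 to 1 when each array was left out in turn (1 without irradiated wild-type replicate 1). The lowest adjusted p of Pecam1 was 0.00762 (normexp) and the highest 0.305. The counts for the other 5 contrasts stayed at 0 under every alternative run. Same-numbered arrays of different groups did not deviate together throughout (r from -0.60 to 0.52, median 0.07, above 0.1 in 11 of 24 pairs). Among arrays with different numbers the median r was -0.05, with 25 of 72 pairs above 0.1. The numbers, which also gave the position on the slide, were not taken as pairs in the main fit. Signs differed in 98 values that were never called. The median for irradiation in labelled knockout ranged from -0.15 to 0.14 and turned sign under 4 alternatives, among them without irradiated labelled knockout replicate 3. The median for genotype after irradiation ranged from -0.13 to 0.23 and turned under 5, with 0.23 without the 2 dimmest arrays, which was added after seeing the data. The cause was not tested. Medians in wild type (-0.29 to -0.06) and for genotype in sham (-0.29 to -0.06) kept their sign, the values nearest 0 being in deposited score units. The other lists moved more, mostly for genotype after irradiation. There normexp correction gave 4 calls each among the VEGF pathway, barrier transporter and caveola lists, and 3 each among the other endothelial and the pericyte lists. The Wnt list went from 0 to 1 there with normexp correction, array weights or no filter on dim probes. The replicate block gave 0 astrocyte calls in place of 1 and 1 transporter call in place of 0 there, and 1 caveola list call in place of 0 in the averaged irradiation contrast. With the block, 1 microglia call for irradiation in wild type and 1 blood cell call for irradiation in labelled knockout went to 0. Both calls also went to 0 under normexp correction, quantile normalization, no filter on dim probes, fits of only the compared groups and the deposited scores. Leaving out most of the single arrays in turn likewise removed each of them. Array weights gave 2 other endothelial calls in the averaged irradiation contrast in place of 0. A slide block was not run, since each genotype lay on 1 slide and sham and irradiated arrays on different parts of it. With 4 mice a group, standard errors of a difference between 2 groups ran from 0.08 (Mfsd2a) to 0.31 (Flt1) log2 units, which limits what could be detected.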
